A study of Homo sapiens with 16 samples.

Results

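The genes described are the core of the transforming growth factor beta (TGF-β) pathway: the ligands TGFB1, TGFB2 and TGFB3, the receptors TGFBR1 and TGFBR2, the signal carriers SMAD2, SMAD3 and SMAD4, the inhibitor SMAD7, and TGFBI, a secreted matrix protein named for its induction by TGF-β. These 10 genes were chosen by symbol from the 20314 genes listed for U251 and the 20626 listed for U343, and all 10 passed the low-count filter in each of the 11 comparisons made. U251 and U343 are established cell lines grown from human glioblastoma, the most aggressive glioma. Both lines received either a control mimic or a mimic of the microRNA miR-137 at 25 nM by lipid transfection. Total RNA was sequenced (RNASeq), as was RNA pulled down with antibodies to PABP, the protein that coats poly(A) tails (RIPSeq). The pull-down used extracts of cells transfected in the same way. Ribosomal RNA was removed from both kinds of sample, and cells were harvested at 48 hours. Each of the 8 groups (2 lines, 2 assays, 2 mimics) had 2 libraries, 16 in all. The labels do not say that replicates were separate cultures, so p-values measure only the spread between these libraries. A mimic is a synthetic double-stranded RNA given in excess, and each line stands for 1 tumour.

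TGF-β ligands are secreted in a latent form, held by their own propeptide and by latent TGF-β binding proteins, and are released by integrins and proteases. Active ligand brings TGFBR2 and TGFBR1 together, TGFBR1 phosphorylates SMAD2 and SMAD3, and these join SMAD4 and act on genes in the nucleus. SMAD7 is itself induced by the pathway and blocks it at the receptor. TGFB2 was first isolated as a T-cell suppressor from glioblastoma cells, and the pathway is known in this tumour for invasion and immune suppression. Bulk counts give RNA only: ligand secretion, activation and SMAD phosphorylation were not measured, and fewer cells of a type and less RNA per cell cannot be told apart.

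The mature miR-137 sequence is shown because its first bases define which sites it can pair with, and the capitals mark the seed, bases 2 to 8. It is encoded on the minus strand of chromosome 1 at chr1:98046091-98046113 (GRCh38.p14, RefSeq).
hsa-miR-137-3p: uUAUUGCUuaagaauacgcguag
A site for this seed in a messenger RNA would read AGCAATA in DNA letters. Transcripts of the members were not scanned for it here.

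The 250 bases before the transcription start of TGFB1 and TGFB2 (RefSeq, GRCh38.p14) are shown because these ligands moved in opposite directions with miR-137. TGFB1 lies at chr19:41353923-41354172 on the minus strand, and TGFB2 at chr1:218345086-218345335 on the plus strand. Capitals mark TATAAA, the core letters of a TATA box, and CGTCA, a core of the cAMP response element, searched on both strands. The motifs cannot overlap each other, and a match is a description, not a site of action.
TGFB1: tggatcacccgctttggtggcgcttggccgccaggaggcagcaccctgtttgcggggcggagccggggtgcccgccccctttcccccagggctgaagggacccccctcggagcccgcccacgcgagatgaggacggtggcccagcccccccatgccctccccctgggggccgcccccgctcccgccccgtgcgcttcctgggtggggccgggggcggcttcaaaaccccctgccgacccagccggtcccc
TGFB2: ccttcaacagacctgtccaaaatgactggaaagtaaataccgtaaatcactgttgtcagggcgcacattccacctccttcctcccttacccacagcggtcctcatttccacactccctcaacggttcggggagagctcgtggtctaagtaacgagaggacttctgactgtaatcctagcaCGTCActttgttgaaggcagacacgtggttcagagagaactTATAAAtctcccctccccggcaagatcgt
The TGFB2 window held CGTCA 70 bases and TATAAA 29 bases before the start. The TGFB1 window held neither. Of the 26 RefSeq start windows of the 10 genes, which run from 250 bases before to 50 bases after a start, 3 held TATAAA, 5 held CGTCA and 2 held both. The windows with both were that of TGFB2 and 1 of TGFB3. Over 35116 windows of the same length, 11.5% held TATAAA, 24.6% held CGTCA and 1.96% held both.

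Libraries held 10156675 to 18224061 reads in U251 RNASeq, 22359794 to 30731476 in U251 RIPSeq, 37952273 to 45134766 in U343 RNASeq and 37736206 to 45055184 in U343 RIPSeq. Some libraries stood apart from their replicate. In U343 RNASeq, the library labelled miR-137 replicate 1 had a read count scaled to library size (CPM) of 235 summed over 12 interferon-stimulated genes, against 242 and 241 in its controls. The other 7 miR-137 libraries had 9424 to 13462 CPM and all controls 118 to 242 CPM, so this library went against the rest of its label. In U251 RIPSeq, the controls differed from each other with a mean chi-square per gene of 216, against 2.46 between the miR-137 libraries of that experiment, which agreed closely. The main results that rest on these libraries are given with and without them. Markers of glial tumour cells (9 genes, VIM, NES, SOX2 and CD44 among them) summed to 5389 to 16489 CPM in U251 and 11575 to 18177 CPM in U343. The U251 sum came mostly from VIM (3105 to 8460 CPM) and CD44 (1848 to 7476 CPM). S100B and CHI3L1 had medians of 0.829 and 0.362 CPM in U251, and 5.74 and 93.1 CPM in U343. GFAP, the astrocyte intermediate filament, had 3.11 to 31.6 CPM in U251 and 3254 to 8129 CPM in U343, and OLIG2 stayed under 1 CPM in both. Markers of leukocytes, endothelium, liver, blood and epithelium summed to 0.589 to 4.85 CPM in U251 and 76.5 to 151 CPM in U343. The U343 sum came from CDH1 (62.4 to 127 CPM) and CDH5 (7.93 to 34.0 CPM), while HBB and ALB were at or near 0, and the part of these genes in the results was not tested.

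With miR-137, TGFB2 RNA fell and TGFB1 RNA rose in total RNA of both lines and in PABP-bound RNA of U343. TGFB3 fell in U251 total RNA and rose in both U343 experiments. Among the receptors, TGFBR1 fell in U251 total RNA and U343 PABP-bound RNA, and TGFBR2 passed the test in no experiment. SMAD2, SMAD4 and TGFBI fell, and SMAD3 and SMAD7 rose, in U251 total RNA, and SMAD7 also rose in U343 PABP-bound RNA. In U251 PABP-bound RNA no member passed the test with both controls.

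By count, using edgeR's quasi-likelihood test with Benjamini-Hochberg adjustment over all genes tested at 0.05, 6 members were lower in U251 RNASeq, where 29.0% of 13052 genes were lower. There 3 members were higher, against 28.7% of genes. The median log2 change of the members was −0.44, beside 0.02 over all genes. In U343 RNASeq, 1 member was lower, against 11.7% of 15088 genes, and 2 were higher, against 8.31%, with medians of 0.06 and 0.02. Without the library labelled miR-137 replicate 1, 2 were lower, against 20.3% of genes, and 3 were higher, against 19.3%. In U343 RIPSeq, 2 members were lower, against 27.8% of 14866 genes, and 3 were higher, against 28.5%, with medians of 0.14 and 0.00487. The share of members called there is thus close to the background.

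In U251 RIPSeq, 0 members passed the test in either direction, where 0.263% of 14087 genes were lower and 0.944% were higher. DESeq2 also called 0 in each direction. There 2 members, TGFB3 and TGFBI, had an unadjusted p under 0.05, as had 2828 genes, and medians were −0.14 for the members and −0.02 for all genes. Without control replicate 1, 5 members were lower (35.3% of genes) and 2 higher (32.8%). Without control replicate 2, 4 were lower (34.2%) and 6 higher (40.2%). These single-control fits assume that a lone control varies like the miR-137 libraries, which nearly agree, so the calls depend on which control is used. TGFB3, SMAD3 and TGFBI were lower and SMAD7 was higher against either control, while the other 6 members changed direction with it.

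The rule stated by the study asks for a 2-fold odds ratio with an adjusted p under 0.001, by Fisher's exact test on reads, in all 4 pairings of control with miR-137 libraries. In U251 RNASeq, TGFB2 and TGFB3 met it as lower, against 2.21% of all genes listed, and TGFB1 and SMAD7 as higher, against 6.14%. In U343 RIPSeq, TGFB2 met it as lower, against 3.40%, and 0 members as higher, against 4.83%. In U343 RNASeq, 0 members met it as lower or higher, against 2.88% and 1.51%. There the odds ratios of TGFB2, control over miR-137, were 2.25 and 2.38 with miR-137 replicate 2. They were 1.85 and 1.96 with the library labelled miR-137 replicate 1. In U251 RIPSeq, 0 members met the rule, against 1.49% and 3.47%. This test takes reads as independent and does not measure the spread between replicates.

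**Figure D1:**
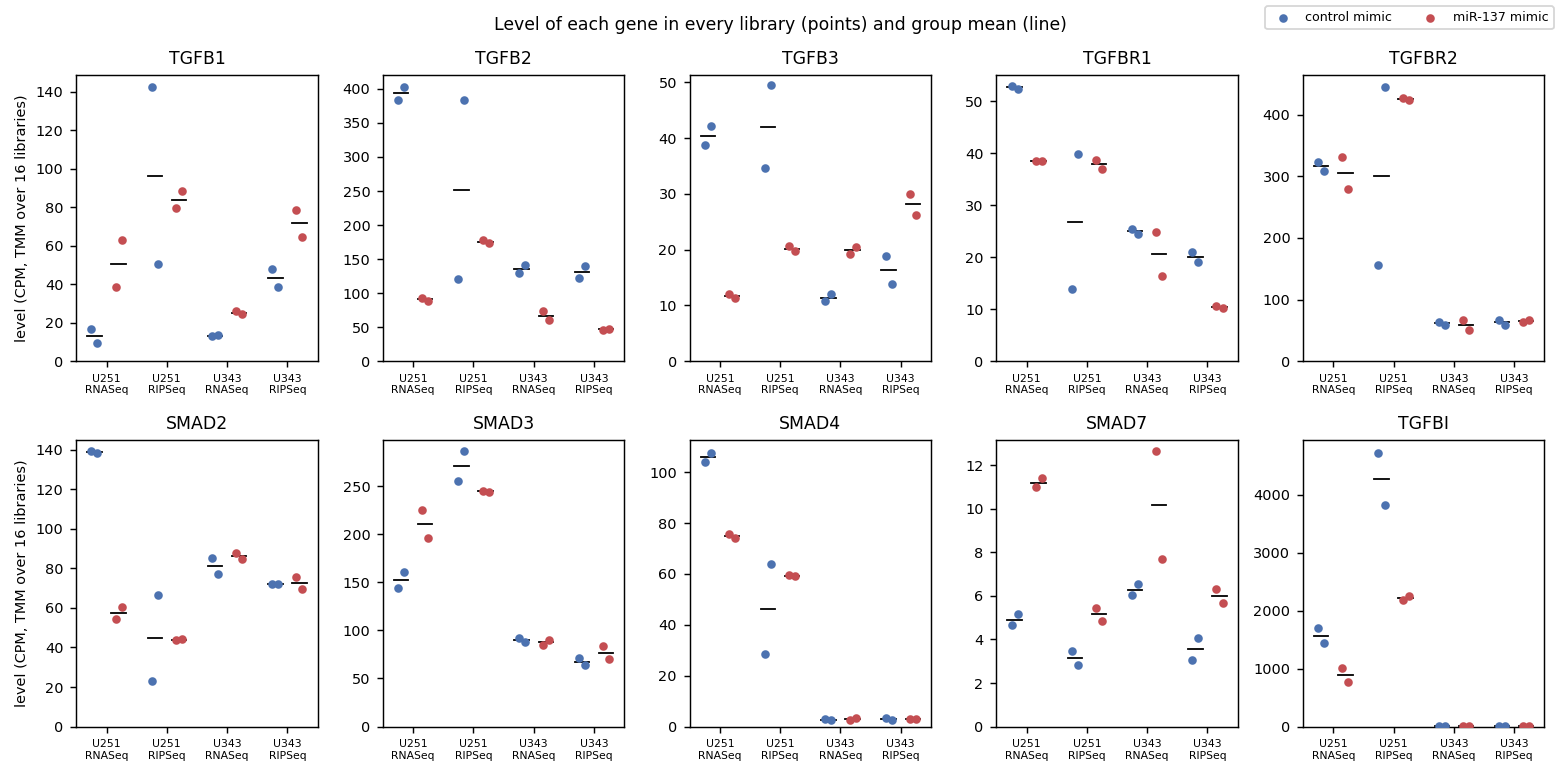
Level of each of the 10 genes in each of the 16 libraries, in CPM on axes that start at 0, after scaling all libraries together, with control and miR-137 libraries side by side in each line and assay, points for libraries and a line for the group mean. TGFB2 sits lower and TGFB1 higher with miR-137 in U251 RNASeq and in both U343 experiments, and SMAD4 and TGFBI sit far lower in U343 than in U251.

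TGFB2, the ligand best known from glioblastoma, had 402 and 419 CPM in the U251 RNASeq controls and 101 and 93.5 CPM with miR-137. It fell 4.22-fold (log2 change −2.08 ± 0.13 SE, adjusted p = 4.67e-08). In U343 RNASeq it had 132 and 143 CPM in controls and 71.7 and 62.0 CPM with miR-137, a log2 change of −1.04 ± 0.12 (adjusted p = 0.0118). Both miR-137 libraries lay below both controls, including the one whose interferon genes stayed at the control level. Without that library the log2 change was −1.15 (adjusted p = 0.000447). In U343 RIPSeq, TGFB2 had 111 and 128 CPM in controls and 41.6 and 44.2 CPM with miR-137, a log2 change of −1.48 ± 0.10 (adjusted p = 1.84e-05). In U251 RIPSeq the controls had 133 and 364 CPM and the miR-137 libraries 172 and 169 CPM, which lie between the controls. The log2 change there was −0.54 ± 0.51 (adjusted p = 0.611), and it was −1.10 without control 1 and 0.45 without control 2.

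TGFB1, the most widely expressed ligand, had 17.8 and 10.1 CPM in the U251 RNASeq controls and 41.7 and 66.6 CPM with miR-137. The groups did not overlap, and TGFB1 rose with a log2 change of 1.96 ± 0.25 (adjusted p = 1.79e-05). In U343 RNASeq it went from 13.1 and 13.9 CPM to 25.4 and 25.0 CPM, a log2 change of 0.90 ± 0.11 (adjusted p = 0.0128). In U343 RIPSeq it went from 43.7 and 35.2 CPM to 72.3 and 59.5 CPM, a log2 change of 0.74 ± 0.13 (adjusted p = 0.00225). In each of these experiments both miR-137 libraries exceeded both controls. In U251 RIPSeq the controls had 157 and 48.1 CPM and the miR-137 libraries 77.1 and 86.0 CPM, so the groups overlapped (log2 change −0.33 ± 0.59, adjusted p = 0.796). The log2 change was 0.76 without control 1 and −0.86 without control 2.

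TGFB3, the third ligand, had 40.6 and 43.8 CPM in the U251 RNASeq controls and 13.0 and 11.98 CPM with miR-137, and fell with a log2 change of −1.76 ± 0.15 (adjusted p = 5.38e-07). In U251 RIPSeq it had 38.3 and 47.1 CPM in controls and 20.0 and 19.2 CPM with miR-137 (log2 change −1.12 ± 0.26, adjusted p = 0.127). The groups did not overlap in either U251 experiment, though the second missed the threshold. In U343 the direction was the opposite. TGFB3 went from 10.8 and 12.2 CPM to 18.9 and 20.9 CPM in U343 RNASeq, a log2 change of 0.79 ± 0.13 (adjusted p = 0.0261). In U343 RIPSeq it went from 17.2 and 12.6 CPM to 27.6 and 24.1 CPM, a log2 change of 0.79 ± 0.15 (adjusted p = 0.00321). The count of TGFB3 is uncertain, since the 23651 bases of its gene lie wholly inside the region listed for BCYRN1 (252196 bases, 3 to 7162 reads) and the counts carry no strand. In U343 RNASeq, no gene of those tested passed on leaving out either control (0 lower and 0 higher, with 2776 or 2675 genes at an unadjusted p under 0.05), so the calls of TGFB1, TGFB2 and TGFB3 were lost there too (adjusted p = 0.161 to 0.263). Their log2 changes without control 1 or 2 were 0.87 and 0.95 for TGFB1, −1.09 and −0.98 for TGFB2, and 0.71 and 0.88 for TGFB3.

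**Figure D2:**
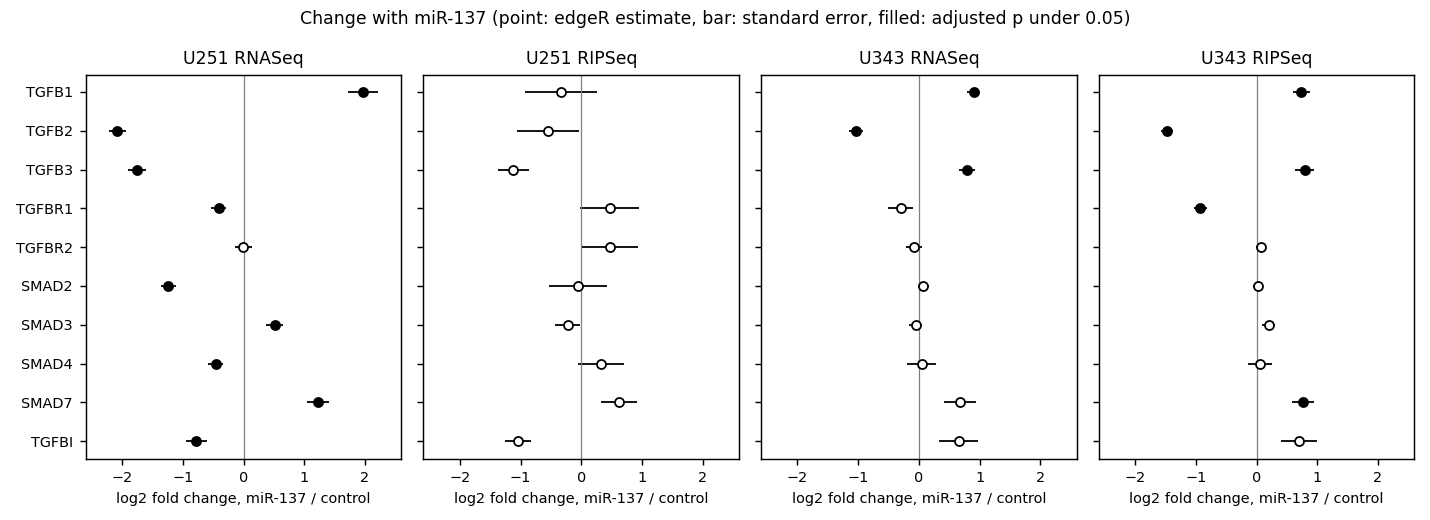
log2 change with miR-137 of the 10 genes in each of the 4 experiments, with bars of 1 standard error, filled where the edgeR adjusted p was under 0.05. TGFB2 lies below 0 in all 4 experiments and passes in 3, TGFB1 lies above 0 in 3 and passes in those 3, and TGFB3 lies below 0 in U251 and above 0 in U343.

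TGFBR1, the receptor kinase that phosphorylates SMAD2 and SMAD3, had 55.4 and 54.4 CPM in the U251 RNASeq controls and 41.8 and 40.8 CPM with miR-137 (log2 change −0.41 ± 0.13, adjusted p = 0.0139). This call was lost with upper-quartile scaling (adjusted p = 0.0814), without control 1 (adjusted p = 0.0587) and in the fit over both assays (adjusted p = 0.455). In U343 RIPSeq it went from 19.1 and 17.4 CPM to 9.73 and 9.52 CPM, a log2 change of −0.92 ± 0.11 (adjusted p = 0.000234). In U343 RNASeq the controls had 25.7 and 24.9 CPM and the miR-137 libraries 24.4 and 16.7 CPM (log2 change −0.30 ± 0.21, adjusted p = 0.353). The lower of these was the library with raised interferon genes, and without the other the log2 change was −0.60 (adjusted p = 0.00608). In U251 RIPSeq TGFBR1 had 15.4 and 37.9 CPM in controls and 37.5 and 36.1 CPM with miR-137, within the range of the controls. A pseudogene, TGFBR1P1, shares sequence with TGFBR1, and reads from the pair may not be separable.

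TGFBR2, the receptor that binds ligand first, showed no called change. It had 338 and 321 CPM in the U251 RNASeq controls and 359 and 295 CPM with miR-137 (log2 change −0.01 ± 0.14, adjusted p = 0.956). In U343 RNASeq it had 64.0 and 59.9 CPM and then 65.0 and 52.2 CPM, and in U343 RIPSeq 60.5 and 54.1 CPM and then 58.5 and 62.2 CPM. The groups overlapped in each of these experiments. In U251 RIPSeq the controls had 173 and 423 CPM and the miR-137 libraries 414 and 413 CPM.

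SMAD2, a receptor-activated SMAD, had 146 and 144 CPM in the U251 RNASeq controls and 58.7 and 63.9 CPM with miR-137, and fell with a log2 change of −1.24 ± 0.13 (adjusted p = 2.88e-06). In U343 it did not pass. It had 86.3 and 78.0 CPM in the RNASeq controls and 86.2 and 87.0 CPM with miR-137, and 65.4 and 65.7 CPM in the RIPSeq controls and 69.3 and 63.9 CPM with miR-137. The U251 RIPSeq controls, at 25.7 and 63.2 CPM, lay on either side of the miR-137 libraries, at 42.2 and 43.2 CPM.

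SMAD3, its close relative, moved the other way in U251 RNASeq, from 150.4 and 167 CPM to 244 and 207 CPM (log2 change 0.51 ± 0.14, adjusted p = 0.00564). In U251 RIPSeq it had 282 and 273 CPM and then 237 and 238 CPM (log2 change −0.22 ± 0.20), with both miR-137 libraries below both controls. In U343 the groups overlapped in RNASeq, at 93.3 and 88.9 CPM and then 82.9 and 92.7 CPM. In U343 RIPSeq SMAD3 had 65.0 and 57.9 CPM and then 76.5 and 65.0 CPM (log2 change 0.20, adjusted p = 0.142). SMAD4, the shared partner SMAD, fell in U251 RNASeq from 109 and 112 CPM to 82.0 and 78.3 CPM (log2 change −0.46 ± 0.12, adjusted p = 0.00585). In the fit over both assays of U251, the SMAD3 and SMAD4 calls were lost (adjusted p = 0.0816 and 0.292), and that of SMAD3 also without control 1 (adjusted p = 0.0746). In U251 RIPSeq SMAD4 had 31.6 and 60.7 CPM and then 57.7 and 57.8 CPM. In U343 SMAD4 was low throughout, at 2.97 and 2.56 CPM and then 2.40 and 3.30 CPM in RNASeq, and 3.04 and 2.29 CPM and then 2.82 and 2.73 CPM in RIPSeq.

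SMAD7, the inhibitory SMAD and itself a target of the pathway, was higher in both miR-137 libraries than in both controls in all 4 experiments. In U251 RNASeq it went from 4.85 and 5.38 CPM to 11.9 and 12.1 CPM, a log2 change of 1.23 ± 0.19 (adjusted p = 8.75e-05). In U343 RIPSeq it went from 2.77 and 3.71 CPM to 5.81 and 5.23 CPM, a log2 change of 0.77 ± 0.18 (adjusted p = 0.00795). The U343 RIPSeq call was lost without control 1 (log2 change 0.57, adjusted p = 0.0582). The other experiments did not pass. In U251 RIPSeq it had 3.86 and 2.68 CPM and then 5.28 and 4.75 CPM (log2 change 0.62 ± 0.29, adjusted p = 0.333). In U343 RNASeq it had 6.11 and 6.63 CPM and then 12.4 and 7.88 CPM (log2 change 0.67 ± 0.26, adjusted p = 0.145), the larger value being that of the library without raised interferon genes. Without that library the log2 change was 0.30 (adjusted p = 0.171).

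TGFBI, a matrix protein that binds integrins and collagen, had 1769 and 1498 CPM in the U251 RNASeq controls and 1094 and 808 CPM with miR-137, a log2 change of −0.78 ± 0.17 (adjusted p = 0.00181). In U251 RIPSeq it had 5208 and 3634 CPM in controls and 2111 and 2197 CPM with miR-137 (log2 change −1.04 ± 0.22, adjusted p = 0.112). The groups did not overlap in either experiment, and the RNASeq call was lost in the fit over both assays (adjusted p = 0.0572). In U343, TGFBI was low. It had 39 and 37 reads in the RNASeq controls and 46 and 75 reads with miR-137, or 0.845 and 0.977 CPM and then 1.09 and 1.77 CPM (log2 change 0.65 ± 0.32, adjusted p = 0.222). In U343 RIPSeq it had 1.75 and 0.959 CPM and then 2.48 and 1.94 CPM (log2 change 0.70 ± 0.30, adjusted p = 0.0803). Without the RNASeq library labelled miR-137 replicate 1, TGFBI passed in U343 RNASeq (log2 change 0.95, adjusted p = 0.0422).

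**Figure D3:**
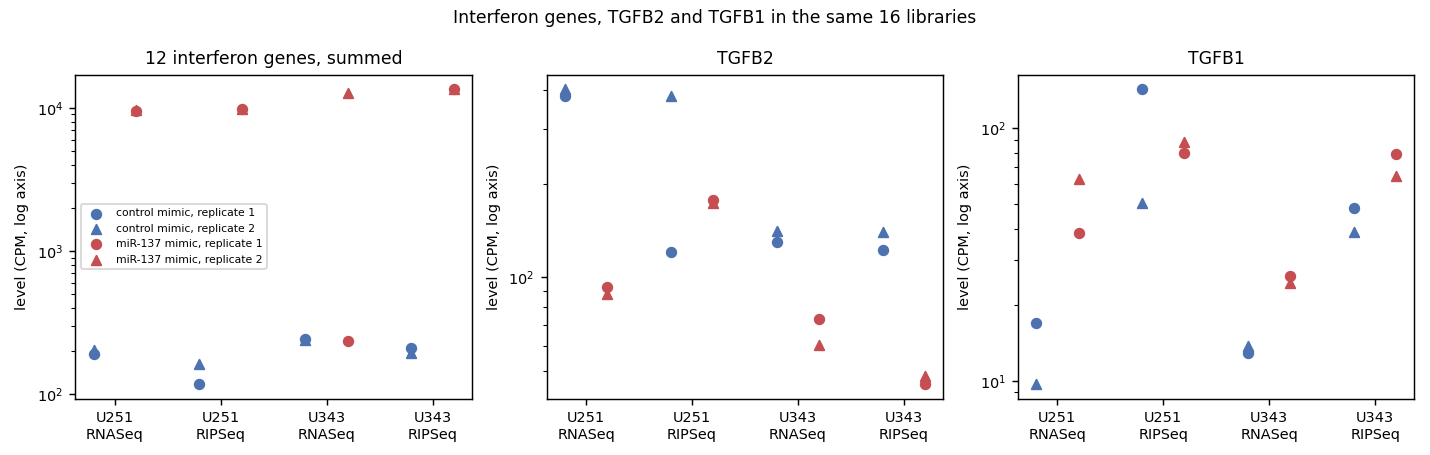
Summed CPM of 12 interferon-stimulated genes, CPM of TGFB2 and CPM of TGFB1 in 3 panels with log axes, each point 1 of the 16 libraries, with the marker shape giving the replicate. The U343 RNASeq library labelled miR-137 replicate 1 lies with the controls in the interferon panel, at 235 CPM, and with its miR-137 replicate in the ligand panels.

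The interferon genes are named because they mark the library that stands apart, and because their sum was high in every other miR-137 library and in no control. MX1, 1 of the 12, stayed low in U343, at 4.65 to 10.1 CPM over its libraries. Changes with miR-137 and changes with this interferon response cannot be told apart in those libraries. The part of the interferon genes in the changes of the members was not tested. With all libraries, 12 of 12 passed as higher with miR-137 in U251 RNASeq, 11 in U251 RIPSeq, 11 in U343 RIPSeq and 0 in U343 RNASeq, where 5 had an unadjusted p under 0.05 and DESeq2 called 7. Without the library labelled miR-137 replicate 1, 11 of 12 passed in U343 RNASeq. In that single library TGFB1, TGFB2 and TGFB3 were at 25.4, 71.7 and 18.9 CPM, each nearer to its miR-137 replicate than to either control. TGFBR1 went the other way, at 24.4 CPM against 25.7 and 24.9 CPM in controls and 16.7 CPM in its replicate. So did TGFBI, at 1.09 CPM against 0.845 and 0.977 CPM in controls and 1.77 CPM in its replicate. SMAD7, at 12.4 CPM, lay beyond its replicate at 7.88 CPM.

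The difference between the lines was tested directly, as the U343 change less the U251 change. In RNASeq, 4 members of 10 differed, all with a higher value in U343, where 25.2% of 15550 genes differed in either direction. TGFB3 differed most, by 2.53 ± 0.19 on the log2 scale (adjusted p = 0.000335), having fallen in U251 and risen in U343. SMAD2 differed by 1.31 ± 0.15 (adjusted p = 0.00158), with its fall in U251. TGFB2, which fell in both lines, fell further in U251, by 1.03 ± 0.18 (adjusted p = 0.00527). TGFBI differed by 1.42 ± 0.34 (adjusted p = 0.0196), which was lost on leaving out some single libraries (adjusted p = 0.0516 to 0.0636) and rests on few reads in U343. TGFB1 (difference −1.06, adjusted p = 0.0757) and SMAD3 (−0.57, adjusted p = 0.0584) did not pass. Without the library labelled miR-137 replicate 1, the same 4 members and 3 more passed, TGFB1 by −1.08 (adjusted p = 0.0276), SMAD4 by 0.70 (adjusted p = 0.0214) and SMAD7 by −0.93 (adjusted p = 0.0140), where 32.7% of genes did in either direction.

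In RIPSeq, TGFB3 alone of the members differed between lines, by 1.97 ± 0.31 (adjusted p = 0.0254), where 3.28% of 15959 genes did. Against a single U251 control the difference was 2.09 without control 1 and 1.77 without control 2, and the call was lost in most fits that left out 1 library (adjusted p = 0.115 to 0.273). TGFBI (difference 1.80, adjusted p = 0.0712) and TGFBR1 (−1.35, adjusted p = 0.192) did not pass with both controls. They were past the threshold against either U251 control alone, TGFBI by 1.47 without control 1 and 1.98 without control 2, and TGFBR1 by −0.85 and −2.17, in fits where 33.7% and 52.8% of genes passed. The lines were also prepared with different cDNA kits, so line and kit cannot be told apart in the size of these differences.

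Whether the change with miR-137 differed between PABP-bound and total RNA was tested within each line. In U251, 0 members passed by edgeR (0.134% of genes did), with 3 members and 2688 genes at an unadjusted p under 0.05. These were TGFB1 (RIPSeq change less RNASeq change −2.35, adjusted p = 0.185), TGFB2 (adjusted p = 0.214) and SMAD3 (−0.78, adjusted p = 0.194). Against a single RIPSeq control all of them passed, TGFB1 at −1.15 without control 1 and −2.88 without control 2, TGFB2 at 1.04 and 2.47, and SMAD3 at −0.65 and −0.72. In those fits 20.1% and 58.0% of genes passed, so the sizes and calls depend on the control. DESeq2 called 1 of them, TGFB1 (adjusted p = 0.0475), and that difference rests on controls at 157 and 48.1 CPM. In U343, 0 members passed by edgeR (0.00649% of genes did), with 2 members and 2712 genes at an unadjusted p under 0.05. These were TGFB2 (−0.43, adjusted p = 0.231) and TGFBR1 (−0.62, adjusted p = 0.255), both with a lower value in PABP-bound than in total RNA. DESeq2 called 0 members in U343. Without the RNASeq library labelled miR-137 replicate 1, both stood at −0.33 (unadjusted p = 0.0535 and 0.0546), and 0.191% of genes passed.

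In control cells, TGFB1 was the member most enriched in PABP-bound over total RNA. With all 16 libraries scaled together, TGFB1 had 17.0 and 9.71 CPM in U251 RNASeq and 142 and 50.6 CPM in U251 RIPSeq. In U343 it had 12.9 and 13.7 CPM in RNASeq and 48.1 and 38.6 CPM in RIPSeq. The log2 difference was 3.05 ± 0.66 in U251 (adjusted p = 0.0365) and 1.66 ± 0.12 in U343 (adjusted p = 6.87e-05), and in both lines every RIPSeq library exceeded every RNASeq library.

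In U251, 2 of 10 members were higher in PABP-bound RNA, where 7.87% of 13242 genes were, and 0 were lower, where 6.14% were (2 by DESeq2). The second was TGFBI, with a log2 difference of 1.59 ± 0.30 (adjusted p = 0.0284). With RIPSeq control 1 or 2 left out, TGFB1 differed by 1.91 or 3.60 and TGFBI by 1.27 or 1.77. Both calls were lost with no count filter and on leaving out an RNASeq control. SMAD2 (−1.57, adjusted p = 0.0651), SMAD3 (0.96, adjusted p = 0.078) and SMAD4 (−1.12, adjusted p = 0.0936) did not pass with both RIPSeq controls. Without control 1 or 2 they passed, SMAD2 at −1.08 and −2.39, SMAD3 at 0.90 and 0.93, and SMAD4 at −0.74 and −1.70, in fits where 54.9% and 75.9% of genes passed.

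In U343, 2 of 10 members were higher in PABP-bound RNA, where 24.4% of 14878 genes were, and 3 were lower, where 24.2% were. TGFB3 was higher, by 0.48 ± 0.16 (adjusted p = 0.0396), a call that held in only 4 of 9 alternatives. It was lost with upper-quartile scaling (adjusted p = 0.0510), and the difference ran from 0.23 to 0.68 on leaving out each library. SMAD7 was lower, by −0.87 ± 0.17 (adjusted p = 0.00511), as were SMAD3, by −0.46 ± 0.08 (adjusted p = 0.00345), and TGFBR1, by −0.36 ± 0.09 (adjusted p = 0.0140). The TGFBR1 call held in 6 of 9 alternatives, with −0.43 to −0.30 on leaving out each library. SMAD3 thus had opposite signs in the lines, at 0.96 in U251 and −0.46 in U343, a difference that was not tested.

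**Figure D4:**
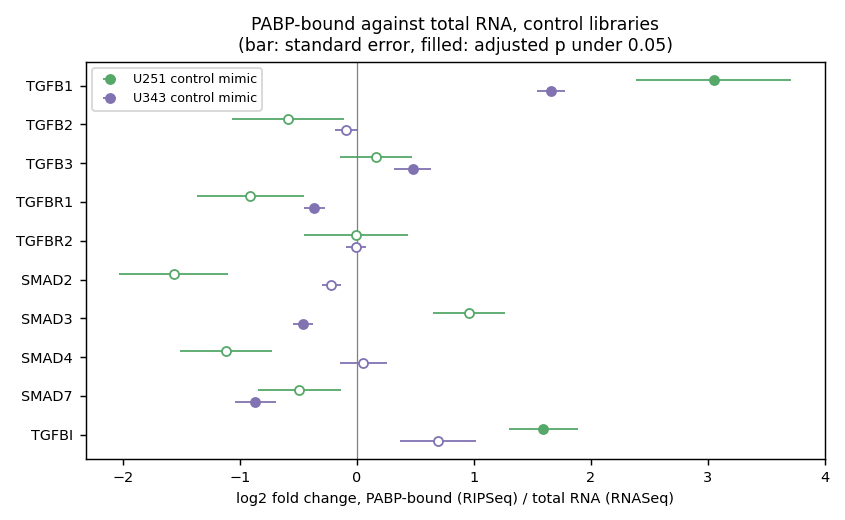
log2 difference of PABP-bound over total RNA in control cells for the 10 genes, U251 and U343 side by side, with bars of 1 standard error, filled where the edgeR adjusted p was under 0.05. TGFB1 has the highest value in each line, 3.05 and 1.66, and the U251 bars are wider than those of U343.

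The lines also differed at baseline. Of the 10 members, 8 were lower in U343 than in U251 in control total RNA, where 39.9% of 14787 genes were lower, and 0 were higher, where 44.9% were (also 0 by DESeq2). The median log2 difference over all genes was 0.10 and that of the members −1.29. TGFBI differed most, with 27699 and 24495 reads in the U251 controls and 39 and 37 reads in the U343 controls, a log2 difference of −10.76 ± 0.20, rank 31 from the lowest among all genes tested. SMAD4 had 1705 and 1826 reads in U251 and 137 and 97 reads in U343, a log2 difference of −5.26 ± 0.12, rank 385. For both genes every U343 library lay far below every U251 library, in a line with deeper sequencing.

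The other members that were lower in U343 were TGFBR2 (−2.35 ± 0.09), TGFB3 (−1.82 ± 0.12), TGFB2 (−1.52 ± 0.10), TGFBR1 (−1.06 ± 0.09), SMAD2 (−0.76 ± 0.09) and SMAD3 (−0.74 ± 0.09). TGFB1 did not pass (0.01 ± 0.23, adjusted p = 0.976), nor did SMAD7 (0.37 ± 0.17, adjusted p = 0.0708), though SMAD7 passed as higher in U343 with upper-quartile scaling (0.47, adjusted p = 0.0280) and with no count filter (adjusted p = 0.0416). Complementary DNA was made with random hexamers in U251 and with another kit in U343, so line and kit cannot be told apart here.

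The genes around SMAD4 and TGFBI on their chromosomes differed between the lines in both directions. SMAD4 lies at chr18:46810581-46865407 and TGFBI at chr5:135392483-135427406 (hg18, both on the plus strand). Of the 9 genes tested with midpoints within 1000 kb of SMAD4, log2 differences of U343 less U251 ran from −4.70 to 3.39 with a median of 0.57. The lowest was MAPK4, with 23 and 32 reads against 2 and 3, at −4.70 ± 0.46 (adjusted p = 1.23e-05), and SKA1 was also lower, at −1.21. Its nearest neighbour ELAC1 was at 0.25 (adjusted p = 0.187), ME2 at 0.57 and MEX3C at −1.33. Of 15 genes near TGFBI, 6 could be tested, from −1.47 (SMAD5OS) to 3.82 (CXCL14), with a median of 0.11. SMAD5, a SMAD of the bone morphogenetic protein (BMP) branch, was at −1.23. These neighbours were chosen for mention after their values were seen.

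**Figure D5:**
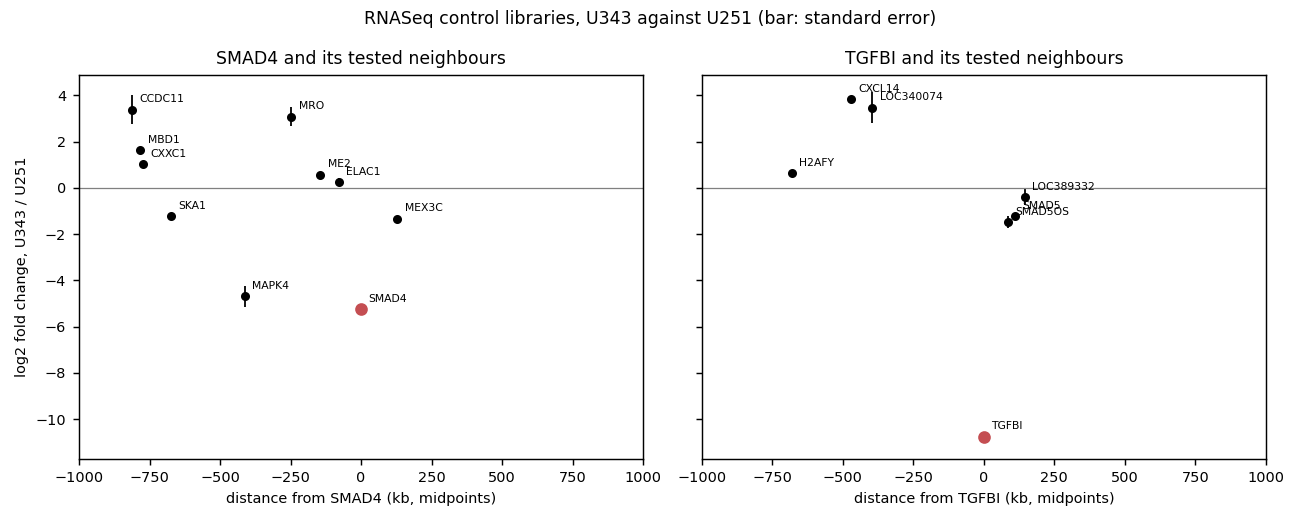
log2 difference of U343 less U251 control total RNA for genes around SMAD4 and around TGFBI, against distance in kb from the gene's midpoint, with bars of 1 standard error. SMAD4 (−5.26) and TGFBI (−10.76) lie below all tested neighbours, whose medians are 0.57 and 0.11.

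The remaining members lie (hg18) at chr19:46528653-46551671, minus strand (TGFB1), chr1:216586014-216684582, plus (TGFB2), chr14:75494195-75517845, minus (TGFB3), chr9:100907233-100956294, plus (TGFBR1), chr3:30622998-30710637, plus (TGFBR2), chr18:43613464-43711513, minus (SMAD2), chr15:65145249-65274587, plus (SMAD3) and chr18:44700221-44731079, minus (SMAD7).

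Genes known to be raised by TGF-β were mixed in U251, and more of them were higher than lower in U343. In U251 RNASeq, 6 of 19 were lower and 7 higher with miR-137, and in U251 RIPSeq 1 of 19 was lower and 2 were higher. In U343 RNASeq 1 of 20 was lower and 5 were higher (1 and 7 without the library labelled miR-137 replicate 1), and in U343 RIPSeq 2 of 19 were lower and 11 higher. Against a single control in U251 RIPSeq the counts were 9 and 9 without control 1 and 10 and 5 without control 2. The list's median log2 changes were 0.17, −0.33, 0.68 and 0.52 in these experiments, in that order. Of all genes tested with all libraries, 29.0% were lower and 28.7% higher in U251 RNASeq, and 0.263% and 0.944% in U251 RIPSeq. In U343 these shares were 11.7% and 8.31% in RNASeq, and 27.8% and 28.5% in RIPSeq. The same shares apply to the counts with all libraries in the other gene lists below. They do not apply to counts with a library left out. For those, the larger shares given above for the members with the same library left out apply.

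Single target genes moved in both directions. In U251 RNASeq, ANGPTL4, a secreted regulator of lipase, rose by 5.72, while the actin-binding proteins TAGLN and TPM1 changed by −3.39 and −2.15 (log2). PMEPA1, a target that also dampens SMAD signalling, went from 865 and 845 CPM to 418 and 410 CPM in U251 RNASeq, and from 1887 and 1992 CPM to 377 and 386 CPM in U251 RIPSeq (log2 change −2.35, adjusted p = 0.0237). CTGF rose in U251 RIPSeq by 1.51 (adjusted p = 0.0352). In U343, the collagen chain COL1A1 rose by 2.56 in RNASeq and 2.74 in RIPSeq, the transcription factor SNAI1 rose by 3.09 in RNASeq, and fibronectin FN1 rose by 2.81 in RIPSeq, from levels of 0.998 and 0.885 CPM.

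Genes that store and activate latent TGF-β were also mixed, with 2 of 10 lower and 6 higher in U251 RNASeq, 0 of 10 in U251 RIPSeq (4 and 4 without control 1, 9 and 3 of 12 without control 2), 3 of 9 lower and 2 higher in U343 RNASeq (4 and 2 of 10 without the library labelled miR-137 replicate 1), and 4 of 9 lower and 3 higher in U343 RIPSeq. The medians were 0.98, −0.43, −0.02 and −0.05, and in U251 RIPSeq 2 were lower and 2 higher at an unadjusted p under 0.05, with 1 each by DESeq2. ITGB8, an integrin subunit that releases active TGF-β, had 203 and 197 CPM in the U251 RNASeq controls and 613 and 527 CPM with miR-137 (log2 change 1.51 ± 0.14). In U343 RNASeq it went the other way, from 845 and 863 CPM to 309 and 305 CPM (log2 change −1.48 ± 0.08), and in U343 RIPSeq from 589 and 517 CPM to 154 and 149.7 CPM (−1.86 ± 0.11). The change of ITGB8 differed between the lines, U343 less U251, by −3.00 ± 0.17 in RNASeq (adjusted p = 0.000175) and by −3.73 ± 0.57 in RIPSeq (adjusted p = 0.0239). The RIPSeq difference rests on the U251 controls that stood apart from each other, and its values with single libraries left out are not given here. ITGAV, its partner subunit, changed by −2.16 in U343 RIPSeq. FURIN, the protease that cleaves the propeptide, changed by −1.56 in U343 RNASeq. The latent binding proteins LTBP3 and LTBP4 rose in U251 RNASeq by 1.90 and 1.94, LTBP4 in U343 RNASeq by 1.83, and LTBP2 in U343 RIPSeq by 1.79.

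Among the proteins that act on SMAD signalling, 5 of 14 were lower and 5 higher in U251 RNASeq, 1 lower and 0 higher in U251 RIPSeq (8 and 5 without control 1, 5 and 8 without control 2), 0 lower and 2 higher in U343 RNASeq (0 and 6 without the library labelled miR-137 replicate 1) and 4 lower and 7 higher in U343 RIPSeq. The medians were −0.09, 0.30, 0.18 and 0.25. This list shares PMEPA1 and SKIL with the target genes, as the latent TGF-β list shares LTBP2 with them. The gene lower in U251 RIPSeq with all libraries was PMEPA1, already counted among the target genes. In U251 RNASeq the ubiquitin ligases NEDD4L and STUB1 changed by −1.47 and −1.28. BAMBI, a decoy receptor, went from 15.0 and 13.6 CPM to 47.9 and 41.5 CPM in U343 RNASeq (log2 change 1.64) and rose by 1.80 in U343 RIPSeq. The ubiquitin ligase SMURF2 rose by 0.71 in U343 RNASeq, and the deubiquitinase USP15 and the corepressor TGIF2 rose by 1.12 and 1.10 in U343 RIPSeq.

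Other receptors of the superfamily gave 0 of 9 lower and 4 higher in U251 RNASeq, 0 of 10 in U251 RIPSeq (2 and 2 without control 1, 0 and 5 without control 2), 1 of 11 lower and 0 higher in U343 RNASeq (2 and 3 without the library labelled miR-137 replicate 1) and 3 of 11 lower and 5 higher in U343 RIPSeq. The medians were 0.51, 0.29, 0.24 and 0.18, and in U251 RIPSeq 0 had an unadjusted p under 0.05 and DESeq2 called 0. The coreceptor ENG rose by 1.75 in U251 RNASeq and 1.14 in U343 RIPSeq. The activin receptors ACVR1 and ACVR1B rose by 0.66 and 0.52 in U251 RNASeq, ACVR1C rose by 2.19 in U343 RIPSeq while ACVR2B went from 17.9 and 17.1 CPM to 8.53 and 8.99 CPM, and BMPR1B changed by −0.59 in U343 RNASeq. Of the 4 other SMADs, 0 passed in U251 RNASeq, U251 RIPSeq (1 lower and 1 higher without control 1, 0 and 3 without control 2) or U343 RNASeq (2 lower without the library labelled miR-137 replicate 1). At an unadjusted p under 0.05, and by DESeq2, 1 was lower in U343 RNASeq and 0 in the U251 experiments. In U343 RIPSeq 2 were lower, SMAD9 by −1.87 and SMAD5 by −0.59.

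Of other ligands, 1 of 9 was lower and 5 higher in U251 RNASeq, 0 of 12 passed in U251 RIPSeq (2 and 4 without control 1, 9 and 2 of 15 without control 2), 0 of 13 passed in U343 RNASeq (2 and 1 of 14 without the library labelled miR-137 replicate 1) and 4 of 14 were lower and 3 higher in U343 RIPSeq. The medians were 0.93, −0.36, 0.06 and −0.12. At an unadjusted p under 0.05, 3 were lower and 1 higher in U251 RIPSeq (0 by DESeq2), and 2 lower and 2 higher in U343 RNASeq (as by DESeq2). BMP6 rose by 1.25 in U251 RNASeq and changed by −1.39 in U343 RIPSeq. GDF11 changed by −0.96 and GDF15 by 0.93 in U251 RNASeq, and the inhibin chains INHA and INHBA rose by 1.31 and 1.15 in U343 RIPSeq. Of secreted antagonists, 2 of 5 were lower and 1 higher in U251 RNASeq, 1 of 9 and 1 in U251 RIPSeq (4 and 2 without control 1, 6 and 3 of 10 without control 2), 2 of 9 and 3 in U343 RNASeq (2 and 4 without the library labelled miR-137 replicate 1) and 3 of 9 and 4 in U343 RIPSeq. The medians were −0.20, −0.83, 0.39 and 0.19. FST, which binds activins, went from 4.92 and 4.53 CPM to 166 and 162 CPM in U251 RNASeq (log2 change 5.12), rose by 2.11 in U251 RIPSeq (adjusted p = 0.0444) and by 1.68 in U343 RIPSeq. TWSG1, which binds BMPs, changed by −1.05 in U251 RNASeq, −1.46 in U343 RNASeq and −1.47 in U343 RIPSeq. NOG, another BMP binder, changed by −2.25 in U251 RIPSeq (adjusted p = 0.0410) and −0.69 in U251 RNASeq but by 2.34 and 3.75 in U343 RNASeq and RIPSeq, from under 1 CPM.

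Some tumour cell markers changed with miR-137 too. In U251 RNASeq 6 of 7 tested were lower, GFAP by −3.18, FABP7 by −2.56 and NES by −1.25 among them, against 29.0% of all genes. In U251 RIPSeq 0 of 7 passed (3 lower at an unadjusted p under 0.05, 0 by DESeq2), where 0.263% of genes were lower and 0.944% higher. In U343 RNASeq 0 of 8 were lower, against 11.7% of genes, and 2 higher, against 8.31%, NES by 1.58 and CD44 by 0.61. In U343 RIPSeq 1 of 8 was lower, against 27.8%, and 2 were higher, against 28.5%, NES by 1.37 among them. Marker counts without the libraries that stood apart are not given here. Their part in the changes of the members was not tested.

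The genes whose pattern was most like that of TGFB2 over the 16 libraries were IPO5, a nuclear import receptor (Pearson r = 0.992), PI15 (0.985), VPS45 (0.985), PRKAR2B (0.985) and SSR3 (0.983), among 10121 genes compared. The measure was r of log2 CPM less the mean of the 4 libraries of the same experiment, so the points share line, assay and depth, and no p is given. In U251 RNASeq, IPO5 changed with miR-137 by −1.42 and PI15 by −2.48. Among the members, r with TGFB2 was 0.741 for SMAD2, 0.719 for TGFBR1, −0.929 for TGFB1 and −0.829 for SMAD7. SMAD2 did not follow TGFB2 in U343, where it changed by 0.08 in RNASeq and 0.02 in RIPSeq and TGFB2 by −1.04 and −1.48. The U251 RIPSeq controls, which stood apart from each other, enter every r given here, and r without them was not computed.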

How the data were processed

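The authors aligned reads to hg18 with RMAP, counted them on 1 merged RefSeq transcript per gene and deposited whole-number read counts per gene (not normalized). The cDNA step differed between the lines (random hexamers for U251, the TotalScript kit for U343), and Nextera was used in both. Each group had 2 libraries, taken from the labels. 1 gene with a repeated entry in the U251 tables was kept once.

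Counts were scaled by TMM and tested with edgeR 4.0.16 (limma 3.58.1, R 4.3.3), glmQLFit and glmQLFTest, after filterByExpr, with Benjamini-Hochberg adjustment over all genes tested (threshold 0.05) and standard errors taken from the log2 change and its F statistic, fitted per experiment, or over 8 libraries for differences between lines or assays. Counts per library were scaled to CPM. CPM in miR-137 comparisons used the libraries of that experiment. The study's own rule (Fisher's exact test in 4 pairings) was run as a second result with Python 3.11.15 and scipy 1.17.1. Alternatives were DESeq2 1.42.0, upper-quartile scaling, other count filters, a replicate block, a fit over both assays and leaving out each library. The scripts were tested on simulated data.

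The members and gene lists were chosen with earlier results of these data known. From each list, at most 3 genes per experiment are named, those past the threshold with the largest change, at least 50 reads on average in the higher group and 1 direction in all 4 pairings. 1 such target gene is not reported here. Similarity to TGFB2 used log2(CPM + 0.5) and names the 5 nearest genes. Depth (10156675 to 45134766 reads) covers counting error only. Protein and 3′ sequences of the members were not used here.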

Additional observations from a re-analysis of the deposited data

Results flagged for a closer look

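These results differed between the lines by a test of the difference itself, the U343 change with miR-137 less the U251 change on the log2 scale, by edgeR. In total RNA the difference was 2.53 for TGFB3, 1.42 for TGFBI, 1.31 for SMAD2 and 1.03 for TGFB2. In PABP-bound RNA it was 1.97 for TGFB3. The lines were prepared with different cDNA kits, so line and kit cannot be told apart, and the U251 RIPSeq controls stand apart from each other. TGFBI had 39 and 37 reads in the U343 RNASeq controls. With 2 libraries a group, samples far from the rest of their group could not be tested for.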

How the results depend on the processing

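Counts of members and single members kept their direction and side of the threshold under most alternatives, and the exceptions follow. The cause was not tested. With both assays of a line in 1 fit, 3 members were lower in U251 RNASeq (1336 of 14210 genes, from 3780 of 13052). In that fit 2 members were lower in U251 RIPSeq (1213 of 14210 genes, from 37 of 14087). The TGFBR2 log2 change in U251 RNASeq was 0.00754 there, 0.0625 with at least 50 reads on average and 0.13 with upper-quartile scaling, and its PABP-bound over total difference in U251 was 0.0380 with that scaling. Upper-quartile scaling moved the median of all genes in U251 RNASeq to 0.16 and the split to 3001 lower and 4588 higher, from 3780 and 3749. It also gave 1 member lower in the line difference of RNASeq (2270 of 15550 genes). PABP-bound over total RNA in U343 then had 1 higher (3361 of 14878 genes), as had U343 over U251 (6934 of 14787). DESeq2 gave 1 lower in the assay difference in U251 (335 of 19948 genes) and 1 lower in the line difference of RNASeq (1798 of 19848). It gave 2 higher in the line difference of RIPSeq (1189 of 20031) and 2 lower in PABP-bound over total RNA in U251 (1570 of 19768). At least 50 reads gave 1 lower in the line difference of RNASeq (1830 of 12475 genes). With no filter 0 members were higher in PABP-bound over total RNA in U251 (16 of 19768 genes) and 1 in U343 over U251 (7051 of 19234).

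No label says that replicate numbers mark a shared dish or day, and they were not taken as pairs. Deviations of same-numbered libraries correlated at −0.11 (U251 RIPSeq), 0.08 (U251 RNASeq), 0.42 (U343 RIPSeq) and 0.15 (U343 RNASeq). With a replicate block, 1 member was lower in U251 RIPSeq (273 genes lower and 529 higher, from 37 and 133), and the SMAD2 log2 change there was 0.0805. In U343 RIPSeq 5 members were then higher (4787 genes lower and 4858 higher, from 4130 and 4234). The line difference of RIPSeq had 0 members higher (86 of 15959 genes). PABP-bound over total RNA had 1 member higher in U343 (3338 of 14878 genes) and 1 lower in U251 (2101 of 13242 genes). A crossed replicate block in U251 RIPSeq, chosen after seeing the data, gave 1 member lower (335 genes lower and 598 higher).

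For the study's rule, an odds ratio over 1.5 gave 1 member lower in U251 RIPSeq (745 of 20314 genes). It gave 1 lower and 2 higher in U343 RNASeq (1321 and 732 of 20626 genes) and 2 lower in U343 RIPSeq (1677 of 20626). With 3 of 4 pairings, 1 was lower in U251 RIPSeq (392 of 20314 genes). On leaving out each library in turn, fewer pairings had to meet the rule, and more of all genes met it in every experiment. The members gained in at least 1 such setting were SMAD2 (lower) in U251 RNASeq and TGFB2 (lower) in U343 RNASeq. In U251 RIPSeq they were TGFB3 and TGFBI (lower) and TGFBR1 and TGFBR2 (higher), and in U343 RIPSeq TGFBI (higher).

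By edgeR, leaving out each library in turn gave 0 to 5 members lower and 0 to 6 higher in U251 RIPSeq, where log2 changes ran from −0.86 to 0.76 (TGFB1), −1.10 to 0.45 (TGFB2), −0.0440 to 1.35 (TGFBR1), −0.0378 to 1.35 (TGFBR2), −0.57 to 0.82 (SMAD2) and −0.0746 to 0.96 (SMAD4). In U251 RNASeq TGFBR2 ran from −0.15 to 0.12. In U343 RNASeq 0 to 2 members were lower and 0 to 3 higher, with −0.26 to 0.0687 (TGFBR2), −0.14 to 0.0171 (SMAD3) and −0.21 to 0.25 (SMAD4). In U343 RIPSeq TGFBR2 ran from −0.0123 to 0.15, SMAD2 from −0.0369 to 0.0776 and SMAD4 from −0.14 to 0.27. For differences between assays or lines, the number of all genes passing depended on the library left out, so counts of members are not given here. The assay difference ran from −2.88 to −1.15 (TGFB1), 1.04 to 2.47 (TGFB2) and −0.77 to −0.57 (SMAD3) in U251. In U343 it ran from −0.56 to −0.33 (TGFB2) and −0.89 to −0.33 (TGFBR1). The line difference of RNASeq ran from 2.46 to 2.65 (TGFB3), 1.24 to 1.45 (SMAD2), 0.92 to 1.15 (TGFB2) and 1.04 to 1.73 (TGFBI). That of RIPSeq ran from 1.75 to 2.20 (TGFB3). PABP-bound over total RNA in U251 ran from −0.0362 to 0.28 (TGFB3) and −0.83 to 0.48 (TGFBR2). In U343 it ran from −0.20 to 0.00352 (TGFB2), −0.0878 to 0.0731 (TGFBR2) and −0.17 to 0.24 (SMAD4). U343 over U251 ran from −0.36 to 0.45 (TGFB1). With 1 library left in a group, it was assumed to vary like the others.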
